A study of Cichorium intybus with 5 samples.

Results

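The genes described here are 5 chicory cDNA probes that belong to RNA metabolism, chromatin or protein folding, taken by name from the 2112 probes of the microarray. They are an RNA helicase superfamily II member (clone N102G9), a putative DEAH-box RNA helicase (clone E006F5), a pentatricopeptide repeat protein (clone E017C1), the histone acetyltransferase HAT B (clone E013B9) and a peptidylprolyl isomerase (clone E009E8). All 5 had a value in all 5 comparisons, as did 467 probes of the table. All 5 also belong to the 78 genes that the study listed as differing between its genotypes after induction. Their induction values therefore describe genes that were listed for those values and are not evidence of a response.

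Leaf explants of chicory (Cichorium intybus) were compared on 2-colour arrays. The explants came from 2-month-old in vitro plantlets, with 12 plants used per replicate. K59 is an embryogenic genotype, which forms embryos from leaf cells in culture (somatic embryogenesis, SE), and C15 is a non-embryogenic genotype obtained by selfing K59, so that each response is that of 1 genotype. Induced K59 explants (K59 d4, 4 days in SE induction medium at 35 °C, shaken in darkness) were set against freshly cut ones (K59 d0), and C15 d4 against C15 d0 in the same way. Explants kept through the same 4 days in medium that also held β-Glc Y at 250 µM are called Y+, and those kept without it Y-. This Yariv reagent is a dye that binds arabinogalactan-proteins of the cell wall, and Y+ was set against Y- in each genotype. K59 d0 was also set against C15 d0. At d4 the medium, cutting of the leaf, heat, shaking and darkness came together, so their parts in a d4 value cannot be told apart. No inactive Yariv compound was included.

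RNA helicases use ATP to unwind RNA or to strip proteins from it. DEAH-box helicases are best known from the spliceosome, and the Arabidopsis gene matched by E006F5 (AT5G13010, CLUMSY VEIN) is related to the yeast splicing helicase Prp16. Pentatricopeptide repeat proteins bind organelle transcripts and guide their editing, splicing or stability. HAT B enzymes acetylate newly made histone H4 before it enters chromatin, and so are tied to DNA replication. Peptidylprolyl isomerases, which include the cyclophilins, turn the bonds before proline residues during protein folding, and some work within the spliceosome. Such genes are of interest in leaf cells that re-enter the cell cycle, where nuclei and nucleoli enlarge. No sequence of the 5 clones was used here. The study lists Arabidopsis matches for E017C1 (AT5G61990), E013B9 (AT5G56740) and E009E8 (AT4G34960), and none for N102G9.

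Each value below is a deposited log2 ratio, with 1 value per probe and comparison, so that 1.0 stands for a 2-fold higher signal in the sample named first. There is no replicate spread, no test was possible, and no difference below could be set against experimental error. The comparisons held between 492 and 1260 probes with a value. The median over all probes was 0.10 for induction of K59, 0.06 for induction of C15 and 0.00 in each of the other 3 comparisons. The spread over all probes, given as the median absolute deviation scaled to an SD, was 1.16 in K59 d4 vs. K59 d0 and between 0.18 and 0.30 in the other 4 comparisons, so that a log2 ratio of 1 lies far closer to the bulk of probes in K59 induction than elsewhere. In whole-tissue RNA, a change in the number of cells of a type and a change in RNA per cell cannot be told apart. Leaf markers of photosynthesis, 6 in all, including the small subunit of RuBisCO, ranged between -5.50 and -0.97 after induction in K59 and between -4.37 and -0.34 in C15. Their part in the values of the 5 probes was not tested.

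**Figure D1:**
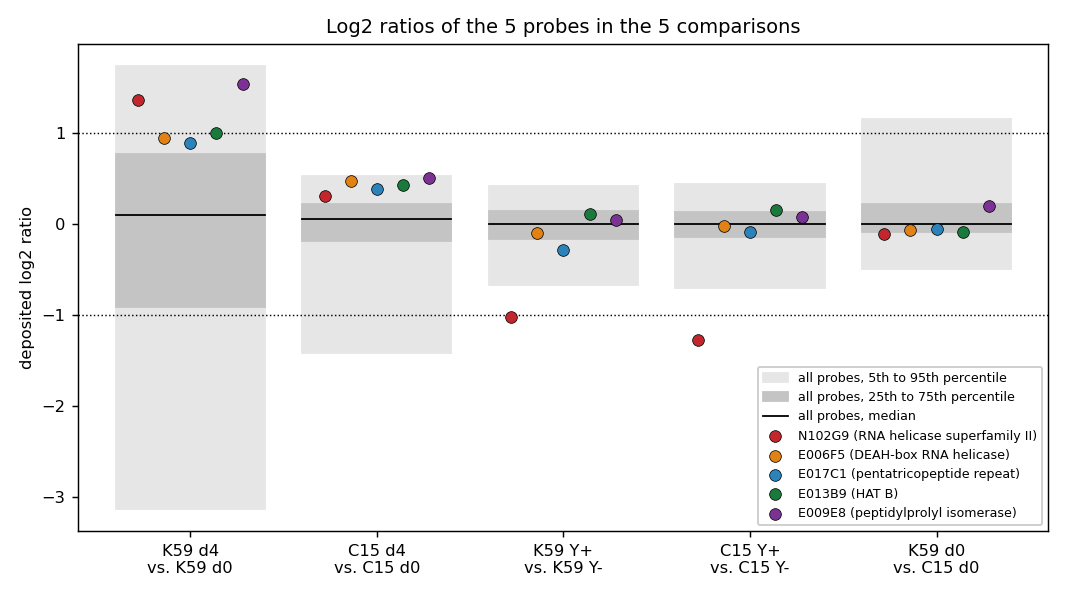
Deposited log2 ratio (vertical axis) of the 5 probes, one coloured point each, in the 5 comparisons, over the 5th to 95th percentile (light bar), the 25th to 75th percentile (dark bar) and the median (line) of all probes with a value. All 5 points lie above 0 after induction in both genotypes, and N102G9 alone lies below the dotted line at -1 after β-Glc Y, at -1.02 in K59 and -1.28 in C15.

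After 4 days of SE induction the signal of all 5 probes was above that of d0 in K59, by a log2 ratio of 0.89 to 1.54, and above it in C15 by 0.31 to 0.51. The peptidylprolyl isomerase and the RNA helicase superfamily II member had the highest values in K59. The lowest K59 value of the 5 (E017C1) was above the highest C15 value (E009E8). The spread over all probes was also wider in K59, at 1.16 against 0.30 in C15. Counted at a log2 ratio of at least 1, 3 of 5 probes passed in K59, where 17.3% of all probes did, and 0 of 5 in C15, where 1.54% did. The median of the 5 was 1.0 in K59 and 0.43 in C15, against 0.10 and 0.06 over all probes.

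The superfamily II helicase N102G9 had a log2 ratio of 1.37 in K59, a 2.58-fold higher signal at d4, and 0.31 in C15, which is 1.24-fold. In K59 75 of 867 probes stood above it, in C15 178 of 1169. It was thus among the higher values in K59 and had the lowest value of the 5 in C15. The DEAH-box helicase E006F5 had 0.95 in K59 (1.93-fold) and 0.47 in C15 (1.39-fold), just outside the threshold in K59. The 2 helicases differed by 0.42 in K59, with N102G9 higher, and by -0.16 in C15, with N102G9 lower.

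The pentatricopeptide repeat probe E017C1 had the lowest K59 value of the 5, 0.89 (1.85-fold), with 0.39 in C15 (1.31-fold). For HAT B (E013B9) the log2 ratio was exactly at the threshold in K59, 1.0, and 0.43 in C15 (1.35-fold). These 2 probes and E006F5 lay within 0.11 of each other in K59 and within 0.08 in C15. The peptidylprolyl isomerase E009E8 had 1.54 in K59 (2.91-fold), with 59 of 867 probes above it, and 0.51 in C15 (1.42-fold), with 62 of 1169 above it, the highest of the 5 in both genotypes.

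The size of the K59 value relative to C15 separated the probes into 2 sets. N102G9 and E009E8 were higher in K59 than in C15 by 1.06 and 1.03, and E013B9, E017C1 and E006F5 by 0.57, 0.50 and 0.48. A difference of at least 1 with K59 higher was found for 2 of 5 probes and for 13.7% of the 811 probes with both values. Relative to the spread of each comparison the order of the genotypes turned for 4 of the 5. E009E8 stood 1.25 spreads above the median in K59 and 1.52 in C15, E013B9 0.78 and 1.25, E017C1 0.68 and 1.11, and E006F5 0.74 and 1.38, whereas N102G9 stood 1.10 above it in K59 and 0.84 in C15. By that measure N102G9 alone of the 5 stood further out in K59.

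**Figure D2:**
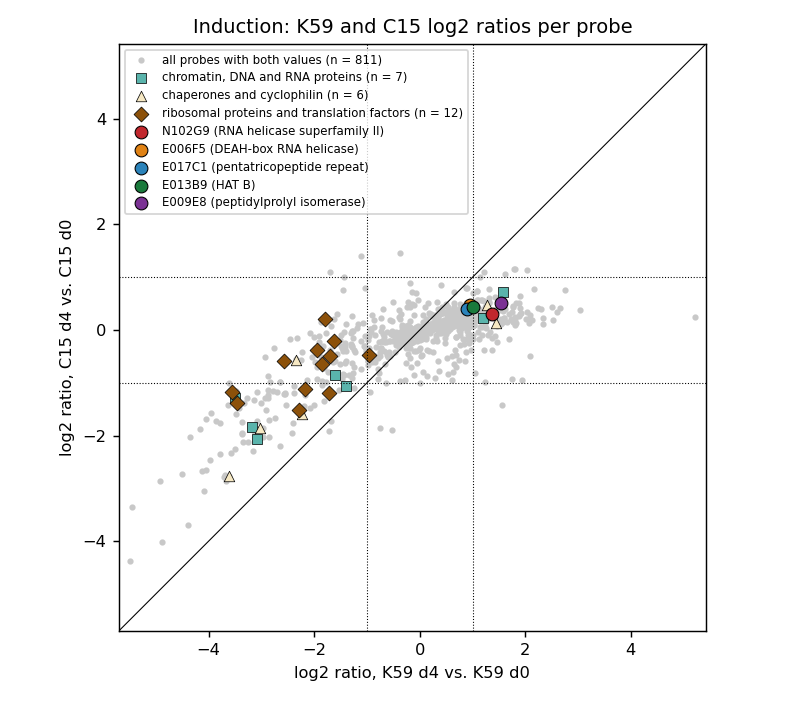
Log2 ratio of K59 d4 vs. K59 d0 (horizontal axis) and C15 d4 vs. C15 d0 (vertical axis) for the 811 probes with both values (grey), the 5 probes (coloured circles) and 3 further gene lists (other symbols), with the line of equal values and dotted lines at 1 and -1. The 5 probes lie together on the upper right, with K59 values of 0.89 to 1.54, apart from most genes of the other lists, which lie on the lower left.

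The first 4 characters of a clone name were read here as its plate, which no label states. They form 22 groups of at most 96 probes. The plates so defined differed in their K59 values. The median log2 ratio of K59 d4 vs. K59 d0 was 0.74 over the 82 probes of plate E017 with a value, 0.48 over the 61 of plate E006, -0.11 over the 35 of plate E009, -0.16 over the 29 of plate E013 and -0.42 over the 31 of plate N102. E017C1 thus lay 0.15 above its plate median and E006F5 0.47 above, whereas E013B9 lay 1.16, E009E8 1.65 and N102G9 1.79 above theirs. The part of the plates in these values was not tested. In C15 the 5 plate medians lay between -0.01 and 0.13, and the 5 probes stayed between 0.26 and 0.45 above them.

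**Figure D3:**
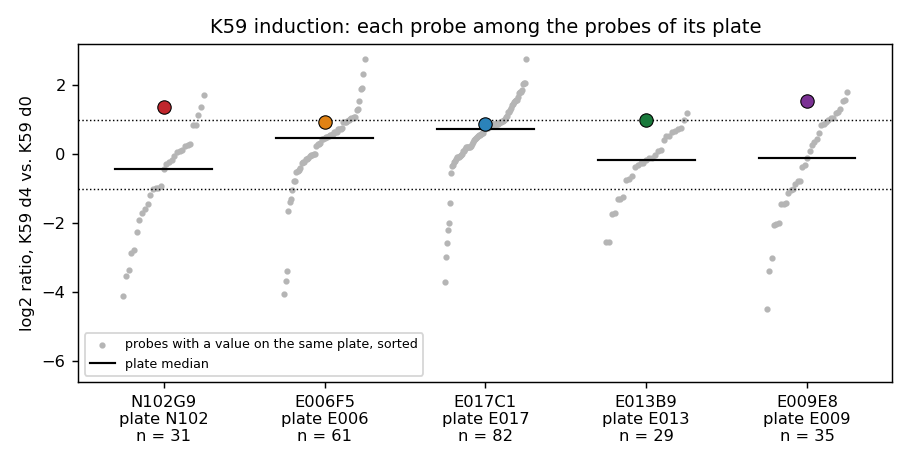
Log2 ratio of K59 d4 vs. K59 d0 (vertical axis) for each of the 5 probes (coloured) among all probes with a value on its plate, sorted from low to high (grey), with the plate median as a line and dotted lines at 1 and -1. E017C1, at 0.89, lies close to the median of its plate, 0.74, and N102G9, at 1.37, lies far above that of its plate, -0.42.

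Most listed genes of neighbouring functions had negative values after induction, unlike the 5 probes. Names were at hand only for the 135 genes that the study listed on these samples, so the counts below are not independent evidence of a direction. Of 7 other genes of chromatin, DNA or RNA, 2 passed the threshold upwards and 5 downwards in K59, with a median of -1.60. Over all probes 23.4% passed downwards in K59 and 8.30% in C15. The 2 upward ones act on DNA, a topoisomerase named as meiosis specific (E012G3, 1.57 in K59 and 0.72 in C15) and MCM3 (E016H3, 1.19 in K59 and 0.23 in C15), part of the helicase that opens replication origins. The downward ones were the spliceosomal core protein SmD1 (E004C10, -3.51 in K59 and -1.28 in C15), Histone H2A (A025C4, -3.18 and -1.84), RNA binding protein A (E010F6, -3.09 and -2.06), a CCR4-associated factor of messenger RNA decay (E005A3, -1.60 and -0.85) and a poly(A)-binding protein (E006G5, -1.39 and -1.06). In C15 0 of the 7 passed upwards and 4 downwards, the exception on the lower side being E005A3.

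Folding genes went both ways. Of 6 chaperones and cyclophilins, 2 passed upwards in K59, the chaperonins E007B3 (1.28) and E017B4 (1.45), and 4 downwards. The cyclophilin E016D9, an isomerase of the same activity as E009E8, had -2.35 in K59 and -0.57 in C15, so that E009E8 lay 3.89 above it in K59 and 1.08 in C15. The heat shock protein 70 probe E012D5, its cognate E016H11 and the dnaK-type chaperone E004A3 had -2.23, -3.62 and -3.03 in K59. In C15 these 3 passed the threshold downwards (-1.60, -2.77 and -1.85), and 0 of 6 passed upwards. Of 12 ribosomal proteins and translation factors, 11 passed downwards in K59 and 5 in C15, with medians of -1.90 and -0.61, and 0 passed upwards in either.

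With β-Glc Y, 1 of the 5 probes passed the threshold in the deposited table, and it was the same one in both genotypes. N102G9 had a log2 ratio of -1.02 in K59 Y+ vs. K59 Y-, a 2.03-fold lower signal with the reagent, and -1.28 in C15 Y+ vs. C15 Y-, a 2.43-fold lower signal. Only 18 of 1201 probes had a lower value in K59 and 23 of 1260 in C15. At -1 or below lay 2.00% of all probes in K59 and 3.81% in C15. Each is a single deposited value. The list of genes published with the study holds other values for this clone in both reagent comparisons, by which it would not pass the threshold, and which set is final is not given in the sources used here. No RNA helicase is among the genes that the study names in its text as changed by β-Glc Y. Some other listed genes also have reagent values that differ between that list and the deposited table. Every statement below on the reagent, for N102G9 or for other clones, holds for the deposited table alone. Both values were far outside the spread of their comparison, at -4.59 and -6.17 spreads from the median.

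The other 4 probes lay between -0.28 and 0.11 in K59 and between -0.09 and 0.16 in C15. E017C1 had -0.28 in K59 and -0.09 in C15, on a plate whose medians were -0.25 and -0.17. The DEAH-box helicase E006F5 had -0.10 in K59 and -0.02 in C15. HAT B had 0.11 in K59 and 0.16 in C15, and the peptidylprolyl isomerase 0.05 and 0.08. As deposited, each of the 5 probes had the same sign in both genotypes. With plate medians subtracted, E017C1 had -0.03 in K59 and 0.08 in C15, opposite in sign. The 2 helicases differed under the reagent, N102G9 minus E006F5 being -0.92 in K59 and -1.26 in C15 on the log2 scale.

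**Figure D4:**
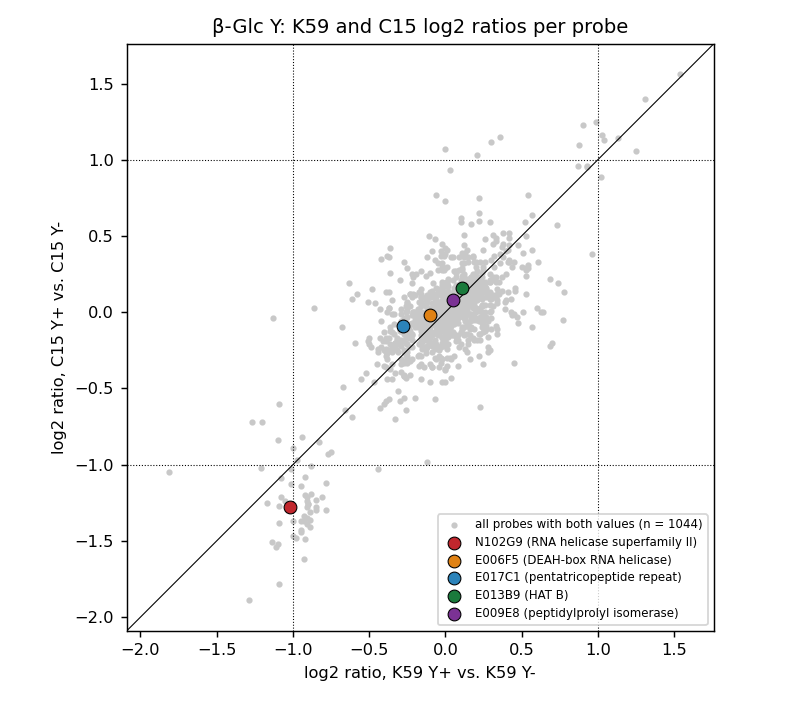
Log2 ratio of K59 Y+ vs. K59 Y- (horizontal axis) and C15 Y+ vs. C15 Y- (vertical axis) for the 1044 probes with both values (grey) and the 5 probes (coloured), with the line of equal values and dotted lines at 1 and -1. N102G9 lies in a small group at the lower left, at -1.02 and -1.28, and the other 4 lie in the main cloud around 0.

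N102G9 was 1 of 18 probes at -1 or below in both genotypes, among 1044 with both values. It was the only one of them on plate N102, which had 39 probes with both values and medians of 0.06 in K59 and 0.08 in C15. Of these 18 probes, 5 had passed the threshold upwards in K59 induction (against 17.3% of all probes) and 0 in C15 induction (against 1.54%). The 5 are N102G9, the 26S proteasome AAA ATPase subunit 6 (E001E6), an amino acid permease (E002B7), the arabinogalactan-protein (E005B11) and the unnamed clone E002C11. Others of the 18 were at -1 or below in K59 induction, as were 23.4% of all probes. They are N104F5 (-4.92), E015F11 (-3.78), E001A11 (-3.7), E017G1 (-2.98), E016D3 (-2.77), E014G4 (-2.45), E015C12 (-1.88), E009A6 (-1.45) and E007E2 (-1.26). In C15 induction N104F5, E001A11, E017G1, E015F11 and E005B11 were at -1 or below, as were 8.30% of all probes. The induction and reagent comparisons both contain d4 explants without β-Glc Y, as the numerator in one and the denominator in the other. Whether they were the same RNA is not stated. The genotypes differed little under the reagent, with K59 minus C15 between -0.19 (E017C1) and 0.26 (N102G9). A difference of at least 1 in size was found for 0 of 5 probes and for 0.192% of the 1044.

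Adding the log2 ratio of d4 over d0 to that of Y+ over Y- gives the level after 4 days with the reagent relative to d0. It is an indirect value that carries the error of both arrays. By this sum of deposited values N102G9 stood at 0.35 in K59 (1.27-fold above d0) and at -0.97 in C15 (1.96-fold below d0), opposite in sign. The negative sign in C15 rests on the reagent value for which the sources differ, and it would not remain with the other one. The other 4 probes stayed above d0 in both genotypes. E009E8 had 1.59 in K59 and 0.59 in C15, E013B9 1.11 and 0.59, E006F5 0.85 and 0.45, and E017C1 0.61 and 0.30. At a sum of at least 1, 2 of 5 probes passed in K59, where 18.3% of 769 probes did. In C15 0 of 5 passed in either direction, where 13.7% of 1070 probes did. Opposite signs were also found outside the 5 probes, as in the mucin-like gene E012B9, with 0.55 in K59 and -0.96 in C15.

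**Figure D5:**
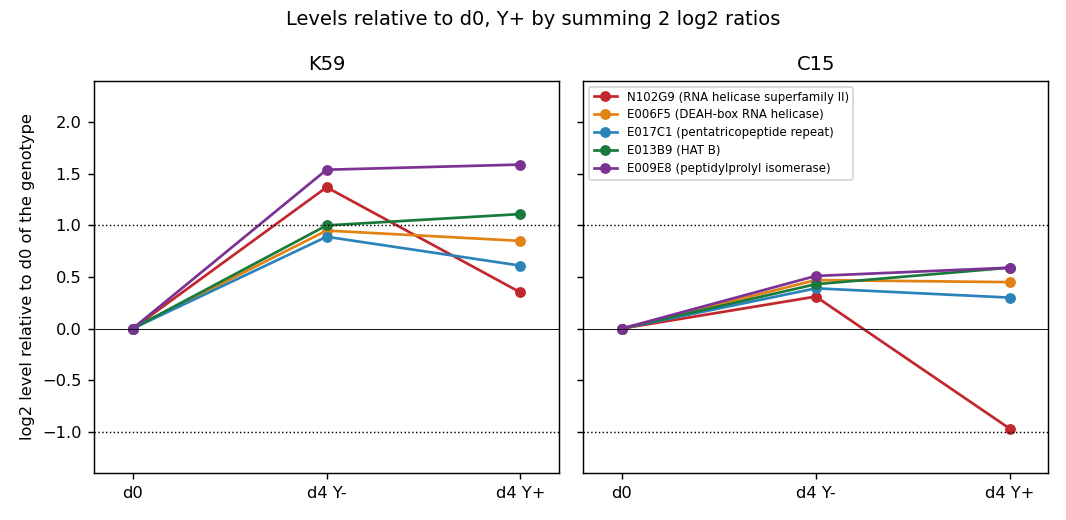
Log2 level relative to d0 of the same genotype (vertical axis) at d0 (set to 0), after 4 days without the reagent (d4 Y-) and after 4 days with it (d4 Y+, the sum of 2 log2 ratios), for K59 (left) and C15 (right), one line per probe. The line of N102G9 ends at 0.35 in K59 and at -0.97 in C15, and the other 4 lines end above 0 in both.

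Before induction the deposited values of the 5 probes were within 0.20 of 0 in size. In K59 d0 vs. C15 d0, E009E8 had 0.20, E006F5 -0.06, E017C1 -0.05, E013B9 -0.09 and N102G9 -0.11. None reached 1 or -1, which 8.13% of the 492 probes with a value did. The direction of this comparison rests on its label and was not settled from the values, and with the sign turned E009E8 would be lower and the other 4 higher in K59. Over the genes that the study lists, this column and the listed values for the same comparison do not rise and fall together, so the d0 values, and the ratio built on them next, hold for the deposited table alone. Exactly 0.00 was listed for 57 probes in this column, and none of the 5 is among them.

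The 3 comparisons around d0 and d4 also give an indirect ratio of K59 d4 over C15 d4, by adding K59 d0 over C15 d0 to the K59 induction value and subtracting that of C15. It was 1.23 for E009E8 (2.35-fold), 0.95 for N102G9 (1.93-fold), 0.48 for E013B9, 0.45 for E017C1 and 0.42 for E006F5, all with K59 higher. One probe, E009E8, reached 1, as did 12.1% of 486 probes. With the d0 sign turned the values were 0.83 for E009E8, 1.17 for N102G9, 0.66 for E013B9, 0.55 for E017C1 and 0.54 for E006F5, so that 1 probe still passed but it was N102G9.

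Over all 5 comparisons the deposited patterns of the probes other than N102G9 lay closer to each other than to that of N102G9, which stood apart mainly by its reagent values, for which the sources differ. Measured as the Euclidean distance over the 5 log2 ratios, which is 0 for identical patterns, E017C1 and E006F5 were closest (0.22), followed by E013B9 and E006F5 (0.29). The distances of N102G9 from the other 4 were 1.48 to 1.87. Among the 467 probes with all 5 values, those nearest to N102G9 were a mucin-like gene (E012B9, distance 0.20), the unnamed clone E016E9 (0.28) and remorin (N104B1, 0.31), a plasma membrane protein. All 3 had K59 induction values of 1.11 to 1.44 and reagent values of -0.95 to -0.85 in K59 and -1.43 to -1.30 in C15.

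The probe nearest to E017C1 and to E006F5 was in both cases the unnamed clone E006G4 (0.18 from each), followed by an expansin (E017D6, a cell wall loosening protein, 0.21 and 0.20) and by each other. E013B9 was nearest to the unnamed clones E009E10 (0.11), E007F6 (0.20) and E008B4 (0.21). E009E8 was nearest to an FH protein (E012E4, 0.30), to ZOG1 (E011A2, 0.30) and to an acyl-CoA oxidase of fatty acid breakdown (E009B5, 0.35).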

How the data were processed

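The deposited values are log2 ratios, 1 per probe in each of 5 comparisons. The authors scanned 2-colour cDNA arrays with GenePix Pro 6.0, subtracted background, left out spots of low signal, saturation or artefacts, normalised each slide by global lowess and print-tip medians in R, and dropped probes that behaved oppositely in the dye swap. The methods state 3 biological replicates and 6 hybridizations per condition. How they became 1 value is not given in the sources used here, nor is the centring, and the precision is unknown. The number of arrays limits it. Direction follows the labels, which put d4, Y+ and K59 d0 in channel 1.

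Ratios were counted at 1 and -1, the filter of the methods, and the share of all probes past it was computed. Sums and differences of log2 ratios, plate medians and Euclidean distances (3 nearest probes per gene) were computed with Python 3.11.15, numpy 2.4.6, pandas 2.3.3 and matplotlib 3.10.9. The false discovery rate and SAM steps need single hybridizations and were not repeated. Counting was tested on simulated data of 2112 probes, recovering 10 of 10 planted counts. By construction the planted values lay past the threshold and the others within it, with none missing, so this checked the code alone. The genes and lists were chosen with earlier results of these data known. Names come from the study's list of 135 genes. The named genes are the 5 probes, their nearest probes and the list members past the threshold. Genes of the lists within the threshold, the probes lowered by the reagent in both genotypes and the regulators of the closing section were named after their values were seen. Alternatives were other thresholds (0.95 and 1.5), subtracting comparison or plate medians, values in units of the spread (threshold 2), the d0 sign turned and other distances.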

Additional observations from a re-analysis of the deposited data

Results flagged for a closer look

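The sum of induction and reagent log2 ratios for the helicase N102G9 had opposite signs in the genotypes. The level after 4 days with β-Glc Y relative to d0 was 0.35 in K59, against -0.97 in C15, and the values differed by 1.32. The list published with the study holds another reagent value for this clone in C15, with which the signs would not be opposite, and which one is final is not given in the sources used here. Each genotype has 1 value, so the difference was not tested. Of this difference, 1.06 came from induction and 0.26 from the reagent comparison. Opposite signs of this sum were not particular to N102G9. Its nearest probes E012B9 and E016E9 had them too. E012B9 had 0.55 in K59 and -0.96 in C15, and E016E9 had 0.30 and -0.97. The share of all probes with opposite signs was not counted.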

How the results depend on the processing

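The 5 probes have 1 value each per comparison, so leaving out a replicate was not possible. No paired analysis was possible because no column holds a single replicate. Of the recomputed counts of the 5 probes, 33 stayed within 1.5 times the count reported and 13 did not. Many of the 33 were counts of 0 that stayed at 0, as in C15 induction and in the d0 comparison. At a threshold of 1.5, 1 probe passed in K59 induction, 0 in the K59 and 0 in the C15 reagent comparison, 0 in the genotype difference after induction, 1 in the K59 sum of d4 Y+ over d0 and 0 in the ratio of K59 d4 over C15 d4. In units of the spread, 0 passed 2 in K59 induction. At 0.95, 1 passed in the C15 sum and 2 in the ratio of K59 d4 over C15 d4. After subtracting the median of each comparison, 1 passed in the genotype difference and 1 in the C15 sum. After subtracting plate medians, 1 passed in the C15 sum and 2 in the ratio of K59 d4 over C15 d4. The probe added in the C15 sum by these settings is N102G9. Comparison medians moved the 25 single values by at most 0.10 with 0 changes of sign, and plate medians by at most 0.74 with 3, none of them of a value past the threshold. HAT B, at 1.0 in K59, fell to 0.90 with the comparison median subtracted. The nearest probes of N102G9 were the same 3 without the d0 column, and 1 of the 3 was kept when each comparison was divided by its spread. For the other 4 probes 1 or 2 of 3 were kept. Counts of the other gene lists were recomputed under settings added after seeing the data.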

Other observations

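Of the genes named for transcription regulators and chosen here after their values were seen, 3 of 4 passed the threshold upwards in K59 induction, where 17.3% of all probes did. All 4 come from the 135 genes that the study listed on these samples, so the count cannot show an enrichment. The 3 are NAM 1 (E002E2, 1.23 in K59 and 0.13 in C15), the nodule inception protein (E006F7, 1.30 and 0.36) and the nuclear receptor (E002E12, 1.32 and 0.53). The LBD41 homologue (E012F12) had 0.57 and 0.04. With β-Glc Y, the nuclear receptor had -0.93 in K59 and -1.62 in C15, LBD41 1.02 and 0.89, NAM 1 0.16 and 0.05, and the nodule inception protein 0.01 and 0.04. The lists of 7 chromatin, DNA and RNA genes, 6 folding genes and 12 translation genes had 0 members past the threshold with β-Glc Y in either genotype. In K59 only 6, 5 and 10 of them had a value. Over all probes 7 of 1201 passed upwards and 24 downwards in K59, and 13 of 1260 upwards and 48 downwards in C15. With so few probes past the threshold, counts of 0 in short lists are not a result about these genes.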
